A study of Mus musculus with 12 samples.

Results

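Histone H3 lysine 4 monomethylation (H3K4me1) at gene ends was described in a mouse melanoma line that is wild type (WT) for Kmt2d, at those places where a Kmt2d mutant melanoma line had no H3K4me1 peak. The members were the H3K4me1 peaks of WT line 971 that lay within 1 kb of an end of a RefSeq protein-coding or long non-coding RNA (lncRNA) gene and had no H3K4me1 peak of mutant line 493 within 1 kb. By this rule 1513 of the 17373 WT H3K4me1 peaks on the assembled chromosomes were taken, and they are called WT-only gene-end peaks below. They made up 87.7% of the 1725 WT H3K4me1 peaks at gene ends, beside 88.4% of all WT H3K4me1 peaks without a mutant peak within 1 kb. Gene ends were therefore not set apart from the rest of the WT list by this share, and the share itself is a product of the rule. The other 212 WT gene-end peaks had a mutant H3K4me1 peak within 1 kb and are called shared gene-end peaks. Further comparison sets were the 13847 WT-only peaks more than 1 kb from any gene end (WT-only distal peaks) and the 397 mutant gene-end peaks with no WT H3K4me1 peak within 1 kb (mutant-only gene-end peaks).

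Both lines are labelled mouse melanoma cells grown in DMEM/F12 medium with serum. Each line was profiled by chromatin immunoprecipitation and sequencing (ChIP-seq) for H3K4me1, H3K4me3, H3K27ac and H3K27me3, with 1 library per line and mark, so that 8 of the 12 libraries of the series have a peak list and the other 4 are inputs. The labels give neither the kind of Kmt2d mutation nor the tumours from which the lines came, and each genotype is 1 line. With 1 library per line and mark no difference here has a replicate check, no test across libraries was possible, and the 2 lines cannot be told apart from the 2 genotypes. The exact (Clopper-Pearson) 95% intervals given for shares cover counting error only. A peak that a list does not hold may reflect a mark in fewer cells, a weaker mark in each cell or a shallower library, which cannot be told apart. The mutant H3K4me1 list was the shorter by far, with 3649 peaks. When both H3K4me1 lists were taken at equal length, 309 WT-only gene-end peaks remained, of which 49.2% had WT and 23.3% mutant H3K4me3 within 1 kb.

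H3K4me1 is placed by KMT2C and KMT2D, the catalytic subunits of COMPASS-like complexes, and is best known as the mark of enhancers, both active and poised. At active CpG-rich promoters, other complexes place H3K4me3 over the start of the gene, and H3K4me1 is typically found on the flanks of the H3K4me3 domain. H3K27ac marks active enhancers and promoters, and H3K27me3 is the mark of Polycomb repression.

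Promoter sequences are shown for 2 situations in which WT-only gene-end peaks were found. RefSeq promoter windows of GRCm38.p6, the assembly of mm10, run from 250 bases before to 50 bases after a start. The windows of Igfbp6, which encodes an insulin-like growth factor binding protein, and Lgals7, which encodes a galectin of stratified epithelia, were themselves overlapped by a WT-only gene-end peak. The windows of B2m, the light chain of MHC class I, and Cdk4, a cell cycle kinase, lay under H3K4me3 with the H3K4me1 peak beside the start. CpG dinucleotides are in capitals, and all sequences read 5′ to 3′ in the direction of the gene.
Igfbp6 (chr15:102143936-102144235, plus strand): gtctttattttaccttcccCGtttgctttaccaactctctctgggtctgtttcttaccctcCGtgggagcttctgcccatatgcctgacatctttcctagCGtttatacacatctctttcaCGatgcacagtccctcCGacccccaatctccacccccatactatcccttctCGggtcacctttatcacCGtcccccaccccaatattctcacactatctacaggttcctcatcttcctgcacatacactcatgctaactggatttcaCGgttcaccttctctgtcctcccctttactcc
Lgals7 (chr7:28864136-28864435, plus strand): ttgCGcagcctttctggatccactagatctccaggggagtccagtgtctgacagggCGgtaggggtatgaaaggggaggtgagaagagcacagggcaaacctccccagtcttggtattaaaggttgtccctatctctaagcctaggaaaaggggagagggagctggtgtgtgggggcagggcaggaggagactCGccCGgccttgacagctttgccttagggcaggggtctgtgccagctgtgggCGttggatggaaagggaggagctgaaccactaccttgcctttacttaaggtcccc
B2m (chr2:122147437-122147736, plus strand): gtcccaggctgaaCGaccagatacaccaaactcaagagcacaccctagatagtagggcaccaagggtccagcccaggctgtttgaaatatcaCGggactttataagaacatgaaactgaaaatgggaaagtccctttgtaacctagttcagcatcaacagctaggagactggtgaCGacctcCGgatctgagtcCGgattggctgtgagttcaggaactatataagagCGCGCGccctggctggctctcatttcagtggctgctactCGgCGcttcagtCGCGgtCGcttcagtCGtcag
Cdk4 (chr10:127063285-127063584, plus strand): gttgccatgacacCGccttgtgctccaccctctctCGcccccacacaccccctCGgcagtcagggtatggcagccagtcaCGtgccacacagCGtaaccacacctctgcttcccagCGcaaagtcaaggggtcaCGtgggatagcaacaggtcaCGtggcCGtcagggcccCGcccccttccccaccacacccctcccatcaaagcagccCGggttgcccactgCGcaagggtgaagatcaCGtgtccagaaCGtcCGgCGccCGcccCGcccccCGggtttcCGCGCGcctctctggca

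Counted over the windows shown, Igfbp6 held 8 CpGs and Lgals7 held 5, beside 14 for B2m and 22 for Cdk4. These genes were chosen after their values were seen. Over the whole table, 169 of 32817 distinct windows were overlapped by a WT-only gene-end peak, and 116 of those had no overlapping WT H3K4me3. Those 116 windows had a median of 3 CpGs, the same as the median of 3 over the 19044 windows with neither such a peak, nor a shared gene-end peak, nor H3K4me3. The 317 windows under WT H3K4me3 with a WT-only gene-end peak 1 to 1000 bp away had a median of 20 CpGs, close to the median of 22 over all 13581 windows under H3K4me3 that no such peak overlapped, the 317 included. Windows with at least 10 CpGs made up 4.31% (1.41 to 9.77%) of the 116, beside 13.1% (12.6 to 13.6%) of the 19044. They made up 74.1% (68.9 to 78.9%) of the 317, beside 86.5% (85.9 to 87.1%) of the 13581. CpG-rich windows were thus less frequent in both of these sets than in the windows compared with them, although the medians were the same or close. Other windows fell outside these 2 situations. The 53 overlapped windows that also lay under WT H3K4me3 had a median of 5 CpGs, and 20.8% (10.8 to 34.1%) held at least 10. The 188 windows without H3K4me3 at 1 to 1000 bp from a WT-only gene-end peak had a median of 4, and 7.45% (4.13 to 12.2%) held at least 10. With 8 CpGs, Igfbp6 lay above the upper quartile of 6 of the 116 windows.

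A second sequence feature was the motif TGANTCA, the core recognised by AP-1 (Fos and Jun family) factors, which reads the same on both strands. It is in capitals in the windows of Hrct1, which encodes a small histidine-rich transmembrane protein, and of the lncRNA 4931406H21Rik, both overlapped by a WT-only gene-end peak.
Hrct1 (chr4:43726948-43727247, plus strand): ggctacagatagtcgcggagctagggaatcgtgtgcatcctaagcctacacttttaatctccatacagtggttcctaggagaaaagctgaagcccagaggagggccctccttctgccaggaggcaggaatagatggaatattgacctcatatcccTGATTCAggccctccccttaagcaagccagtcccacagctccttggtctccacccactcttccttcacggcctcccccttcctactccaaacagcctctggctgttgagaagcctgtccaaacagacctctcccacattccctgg
4931406H21Rik (chr14:25586554-25586853, plus strand): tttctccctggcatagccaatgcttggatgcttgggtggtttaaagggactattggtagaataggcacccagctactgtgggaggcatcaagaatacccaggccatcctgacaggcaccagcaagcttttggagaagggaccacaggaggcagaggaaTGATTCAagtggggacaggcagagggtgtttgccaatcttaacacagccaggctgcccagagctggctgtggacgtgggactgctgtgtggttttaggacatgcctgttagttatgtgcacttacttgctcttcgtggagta

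TGANTCA was found in 25 of the 116 windows overlapped by a WT-only gene-end peak without H3K4me3 (21.6%, 14.5 to 30.1%), beside 9.97% (9.55 to 10.4%) of the 19044 other windows without H3K4me3 and 7.81% of all 32817 windows. It was also found in 31 of the 188 windows without H3K4me3 that lay 1 to 1000 bp from such a peak (16.5%, 11.5 to 22.6%), so that it was not limited to overlapped starts. Of the 53 overlapped windows that also lay under H3K4me3, 3 held it (5.66%, 1.18 to 15.7%), beside 4.67% of other windows under H3K4me3. Of the 317 windows under H3K4me3 that lay 1 to 1000 bp from such a peak, 31 held it (9.78%, 6.74 to 13.6%). This share was above the 4.67%, which includes these 317. The TEAD core GGAATG was present on either strand in 25.9% (18.2 to 34.8%) of the 116 windows and in 16.9% of other windows without H3K4me3. The E-box CATGTG was present in 26.7% (18.9 to 35.7%) beside 19.02%, CCAAT in 36.2% (27.5 to 45.6%) beside 37.8%, and TATAAA in 15.5% (9.46 to 23.4%) beside 18.8%. The GC box GGGCGG stood at 9.48% (4.83 to 16.3%) beside 13.6%. Of the 6 motifs searched, TGANTCA and GGAATG were those whose intervals did not reach the share in the other windows without H3K4me3. In the 188 windows near a WT-only gene-end peak, however, GGAATG stood at 16.0% (11.0 to 22.0%), not above the 16.9%. Of 13 windows without H3K4me3 overlapped by shared gene-end peaks, 2 held TGANTCA (15.4%, 1.92 to 45.4%). These were too few to set apart from the 21.6% or the 9.97%. A match is a description of the letters and no evidence of binding, and windows of neighbouring starts of 1 gene can overlap.

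The WT-only gene-end peaks were narrow, with a median width of 429 bp, quartiles of 295 and 688 bp and a range from 200 to 3816 bp. Their width lay close to that of the WT-only distal peaks (median 413 bp), below that of the shared gene-end peaks (median 539.5 bp) and above that of the mutant-only gene-end peaks (median 333 bp). A width of at least 1 kb was reached by 166 of them (11.0%), by 21.7% of the shared gene-end peaks and by 0.756% of the mutant-only gene-end peaks. The median −log10 p that the authors gave was 6.34, beside 6.77 for the shared gene-end peaks and 6.31 for the WT-only distal peaks, and the maximum was 11.4. Width also followed the position relative to H3K4me3. Peaks that lay inside an H3K4me3 peak had a median width of 346 bp, peaks across its edge 595 bp, and the 8 peaks that reached beyond an H3K4me3 peak on both sides 1246.5 bp. A wide H3K4me1 peak has more room to reach over an edge, so the width in these classes is partly set by how the classes were defined.

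**Figure D1:**
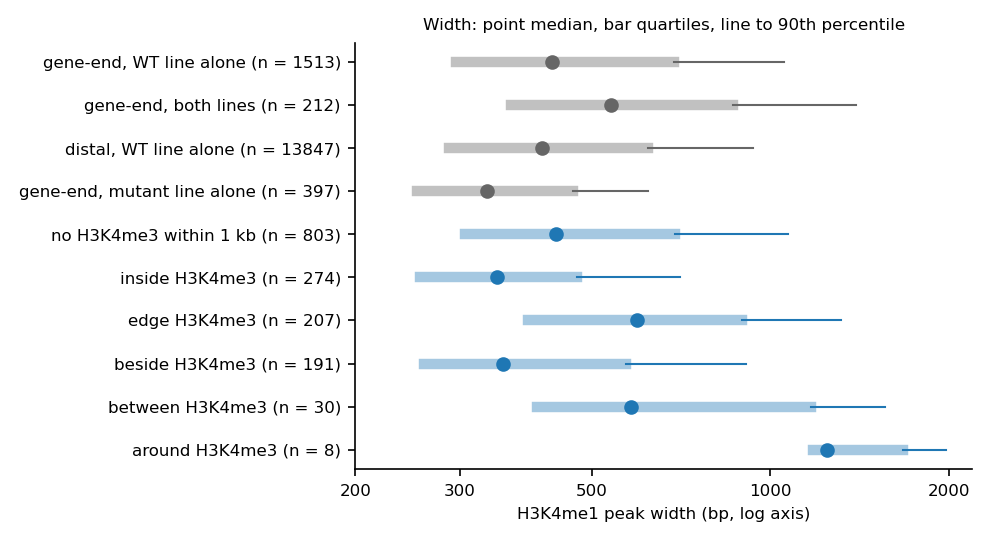
Widths of H3K4me1 peaks in bp on a log axis for the 4 peak sets (grey) and for WT-only gene-end peaks by their position relative to WT H3K4me3 (blue); points are medians, bars run between the quartiles and lines reach the 90th percentile. The WT-only gene-end peaks (median 429 bp) sit between shared (539.5 bp) and mutant-only (333 bp) gene-end peaks, and those inside H3K4me3 are narrower (346 bp) than those across its edge (595 bp).

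The widest peaks of the group were found at the protein-coding gene model Gm45915 (3816 bp, chromosome 14, 25600435 to 25604250, over the gene start), at the lncRNA Gm51811 (3144 bp, within an H3K4me3 peak of 4802 bp), and at the lncRNA Gm34065 (3098 bp). Among named protein-coding genes they lay at the stop ends of Zc3h12a, which encodes an RNase that degrades inflammatory transcripts (2583 bp), Smyd4 (2456 bp) and the zinc transporter gene Slc39a13 (2441 bp), and over the start of Lgals7 (2407 bp). None of the 10 widest peaks of the group had a mutant H3K4me3 peak within 1 kb, and only those at Gm51811, Zc3h12a and Lgals7 had a WT one. The most significant peak by the authors' p value lay over the annotated 5′ end of the lncRNA Gm40138 (chromosome 3, 122131060 to 122131841, −log10 p of 11.4, fold enrichment of 6.45). It had no H3K4me3 within 7754 bp in the WT line or 7929 bp in the mutant line, while H3K27ac peaks of both lines overlapped it. The next were at the lncRNA Gm41454 (−log10 p of 11.1), whose nearest peaks of H3K4me3 and WT H3K27ac lay 97225 bp and 40570 bp away, and at Gm36266 (−log10 p of 10.9), inside H3K4me3.

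Of the 1513 WT-only gene-end peaks, 710 had WT H3K4me3 within 1 kb (46.9%, 44.4 to 49.5%). The share was 70.3% (63.6 to 76.3%) for shared gene-end peaks and 28.8% (28.0 to 29.5%) for WT-only distal peaks, and these intervals did not overlap. Mutant-only gene-end peaks stood at 92.4% (89.4 to 94.8%) against H3K4me3 of their own line. The other 803 WT-only gene-end peaks (53.1%) thus lay at a gene end with no WT H3K4me3 within 1 kb. Of the 710 peaks, 274 (18.1% of all 1513) lay wholly inside an H3K4me3 peak, 207 (13.7%) lay across an edge, 191 (12.6%) lay beside H3K4me3 without touching it, 30 lay between 2 H3K4me3 peaks and 8 reached around 1. Flanking positions therefore made up 61.4% (57.7 to 65.0%) of those with H3K4me3 nearby. Of the 3986 WT-only distal peaks with WT H3K4me3 within 1 kb, 1097 lay inside it, as did 77 of 149 such shared gene-end peaks. Flanking was thus not particular to WT-only gene-end peaks and was more frequent among the distal ones. Shared gene-end peaks lay inside H3K4me3 in 36.3% (29.8 to 43.2%) of cases and between 2 H3K4me3 peaks in 11.8% (7.78 to 16.9%), beside 1.98% (1.34 to 2.82%) of WT-only gene-end peaks. Of the mutant-only gene-end peaks 75.6% (71.0 to 79.7%) lay inside H3K4me3.

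**Figure D2:**
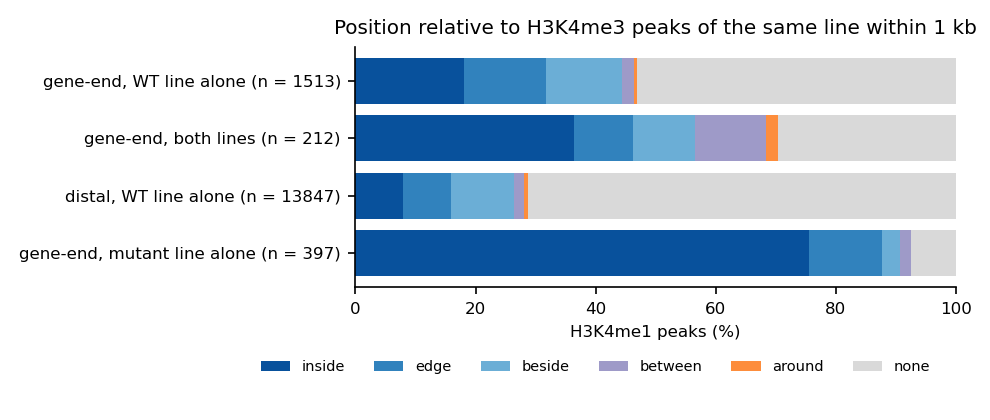
Share of H3K4me1 peaks (%) in each position relative to H3K4me3 peaks of the same line within 1 kb, for 4 peak sets. WT-only gene-end peaks have no H3K4me3 in 53.1% of cases and lie inside it in 18.1%, while 75.6% of mutant-only gene-end peaks lie inside H3K4me3.

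The peaks beside H3K4me3 were separated from it by a median gap of 393 bp (quartiles 175.5 and 669.5 bp). For those inside it, the outer end was a median of 289 bp from the nearer boundary, and 197 of the 274 (71.9%) were within 500 bp of it. The H3K4me3 peaks that held them had a median width of 3077 bp. The 1 kb limit to a gene end bears on these distances, and a preference for the boundary was not tested. Counted by H3K4me3 peak, 745 WT H3K4me3 peaks had a WT-only gene-end peak within 1 kb. On 479 of them it lay on 1 flank, on 226 only inside, and on 40 on both flanks. A further WT H3K4me1 peak of any kind lay on the other flank of 105 of the 479. H3K4me1 on both flanks was thus the less frequent arrangement at these H3K4me3 peaks.

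Strand was known for 27025 of the 34614 genes, and a RefSeq start lay within 1 kb of the outermost 5′ end in 92.8% of them. Of the 1165 WT-only gene-end peaks at a gene of known strand, 626 (53.7%, 50.8 to 56.6%) lay at a 5′ end, here called a start, and 539 only at a 3′ end, here called a stop end. Shared gene-end peaks divided alike (54.7% at starts, 46.9 to 62.2%), and mutant-only gene-end peaks lay at starts more often (74.2%, 69.0 to 79.0%). Per gene end there was little to separate them, since 2.24% (2.07 to 2.42%) of all starts and 2.11% (1.94 to 2.29%) of all stop ends had a WT-only gene-end peak. H3K4me3 within 1 kb was found for 56.9% (52.7 to 61.0%) of the peaks at starts alone and for 34.9% (30.9 to 39.1%) of those at stop ends alone. A RefSeq start of any gene lay within 2.5 kb of 33.0% (26.3 to 40.2%) of the stop-end peaks with H3K4me3 and of 12.8% (9.51 to 16.8%) of those without.

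At gene starts, peaks with H3K4me3 within 1 kb had their midpoint upstream of the start in 227 of 362 cases (62.7%, 57.5 to 67.7%) and covered the start in 10.8% (7.77 to 14.4%). Those without H3K4me3 had it upstream in 48.5% (42.3 to 54.7%) and covered the start in 24.6% (19.5 to 30.3%). For shared gene-end peaks at starts with H3K4me3 within 1 kb, the upstream share was 57.1% (45.4 to 68.4%). The rule takes peaks up to 1 kb on either side of a start, so peaks placed evenly would also divide about equally. These shares therefore do not show centring on the start. Among peaks at the start of a single gene that lay across the edge of H3K4me3 or beside it, 136 of 163 (83.4%, 76.8 to 88.8%) were on the side away from the gene. This asymmetry depended on the 1 kb limit to a gene end. WT H3K4me3 peaks over starts with no other gene end within 5 kb reached a median of 692 bp upstream and 1829 bp into the gene, so that the inner flank is mostly beyond the 1 kb of the rule. At those 4194 H3K4me3 peaks, 57 of 66 flanking WT-only gene-end peaks (86.4%, 75.7 to 93.6%) were on the side away from the gene. When WT-only H3K4me1 peaks at any distance from the gene end were counted at the same starts, 155 of 256 lay on the side of the gene body and 101 (39.5%, 33.4 to 45.7%) on the side away from it. For WT H3K4me1 peaks with a mutant peak, also at any distance, the share away from the gene was 35.2% (22.7 to 49.4%).

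**Figure D3:**
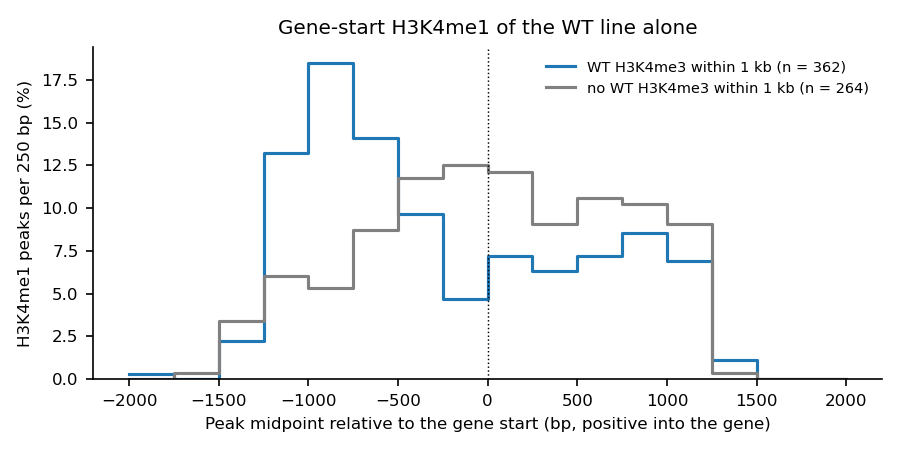
Midpoints of WT-only gene-end H3K4me1 peaks relative to the gene start in bp (positive into the gene), as a percentage of peaks per 250 bp, with (blue) and without (grey) WT H3K4me3 within 1 kb. With H3K4me3 the profile falls to 4.70% in the 250 bp just upstream of the start, and 62.7% of midpoints are upstream. Without it 48.5% are upstream.

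H3K4me3 next to these peaks was often called in the WT line alone where it was weak. Of the 663 WT H3K4me3 peaks at gene ends that had a WT-only gene-end H3K4me1 peak within 1 kb, 167 had no mutant H3K4me3 within 1 kb (25.2%, 21.9 to 28.7%). The background over all 12908 WT H3K4me3 peaks at gene ends was 5.19%, and over all WT H3K4me3 peaks, distal ones included, 24.3%. Next to shared gene-end H3K4me1 the share was 29.1% (21.7 to 37.3%), so that it was not particular to places where mutant H3K4me1 was missing. Strength was uneven between these groups, and the comparison was therefore repeated within bands of the authors' H3K4me3 score. In the lowest 25% of scores, 159 of 273 peaks next to WT-only gene-end H3K4me1 had no mutant H3K4me3 (58.2%, 52.1 to 64.2%), beside 58.6% (46.2 to 70.2%) next to shared gene-end H3K4me1 and 14.9% (13.6 to 16.3%) with no WT H3K4me1 within 1 kb. Next to WT H3K4me1 that was not itself at a gene end the share was 22.5% (13.9 to 33.2%) in this band and 23 of 919 (1.59 to 3.73%) over all scores. The band did not match the groups fully, since the median score in it was 134.43 next to WT-only gene-end H3K4me1, 120.4 next to shared and 226.0 with no WT H3K4me1. In the stronger part, with scores above the median, the shares were 1.73% (0.564 to 3.99%) and 0.0931% (0.0302 to 0.217%) with and without WT-only gene-end H3K4me1. Where the mutant line did have an overlapping H3K4me3 peak, it was a median of 0.909 times as wide as the WT peak next to WT-only gene-end H3K4me1 and 0.986 times as wide at gene ends without WT H3K4me1. The ratio next to shared gene-end H3K4me1 was 0.906.

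**Figure D4:**
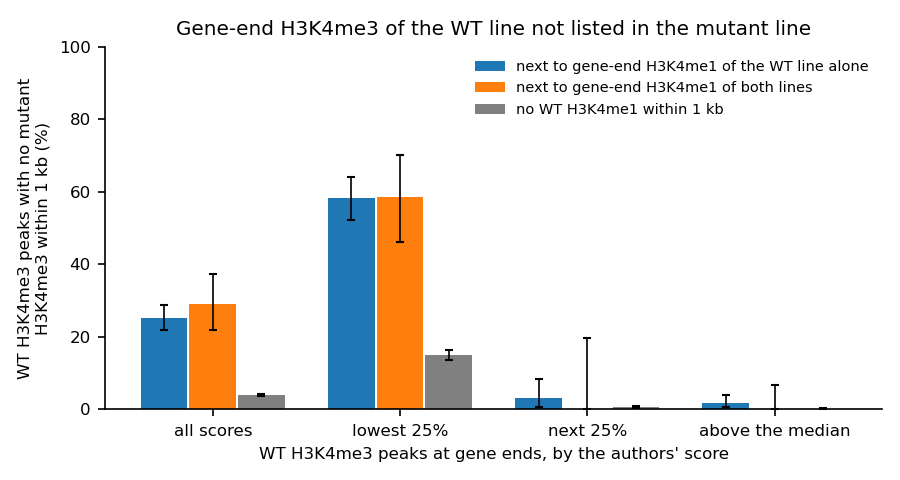
Percentage of WT H3K4me3 peaks at gene ends with no mutant H3K4me3 within 1 kb, for all scores and in bands of the authors' score, grouped by the neighbouring WT H3K4me1; bars are shares and error bars exact 95% intervals. In the lowest 25% of scores the share is 58.2% next to WT-only and 58.6% next to shared gene-end H3K4me1, beside 14.9% with no H3K4me1.

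Seen from the H3K4me1 peaks, 477 of the 1513 (31.5%, 29.2 to 33.9%) had mutant H3K4me3 within 1 kb. The bases that they covered were occupied by 201.5 kb of WT H3K4me3 and by 90.7 kb of mutant H3K4me3 out of 848 kb. Of the 515 that overlapped WT H3K4me3, 287 (55.7%) also overlapped mutant H3K4me3, 87 (16.9%) had it only within 1 kb and 141 (27.4%, 23.6 to 31.4%) had none within 1 kb. The last share was 25.4% (18.1 to 33.9%) for shared gene-end peaks and 57.3% (55.3 to 59.2%) for WT-only distal peaks. Those inside a WT H3K4me3 peak had mutant H3K4me3 within 1 kb in 83.2% (78.2 to 87.4%) of cases, those across an edge in 61.8% (54.8 to 68.5%) and those beside it in 48.2% (40.9 to 55.5%). The share also followed H3K4me1 width. Among the narrowest 25%, 51.0% had WT and 39.9% (35.0 to 45.0%) had mutant H3K4me3 within 1 kb, and among the widest 25% these were 46.6% and 23.5% (19.4 to 28.2%).

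WT H3K4me3 peaks next to a WT-only gene-end peak with no mutant H3K4me3 within 1 kb were named by score. A single H3K4me3 peak was considered for each H3K4me1 peak. The strongest of those named were at the lncRNAs Carmn and Wincr1 and at Pcolce. Counted by H3K4me3 peak, 5 of 289 with scores above the median had no mutant H3K4me3 within 1 kb, and not all 5 are named here. Carmn, a smooth muscle transcript, had a WT H3K4me3 peak of 4781 bp (score 3202.64), with the nearest mutant H3K4me3 17870 bp from the H3K4me1 peak. At Wincr1, a WNT-responsive lncRNA, the WT H3K4me3 peak was 6049 bp wide (score 3100) and the nearest mutant H3K4me3 was 105809 bp away. At the start of Pcolce, the gene of a procollagen C-endopeptidase enhancer, a peak of 818 bp (chromosome 5, 137611583 to 137612400) lay inside a WT H3K4me3 peak of 5174 bp (score 3100), and the nearest mutant H3K4me3 was 8374 bp away. The same H3K4me3 peak held the peak of 539 bp at Gm36266 and Fbxo24 (137613001 to 137613539). The other peaks named by this rule were at Dmwd (score 2970.92), Gm35525 (972.23), Fgd3 (931.22), which encodes an exchange factor for Cdc42, Gm16104 (844.58), and Gldn (701.34), which encodes the extracellular protein gliomedin.

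WT H3K27ac lay within 1 kb of 502 WT-only gene-end peaks (33.2%, 30.8 to 35.6%), beside 51.4% (44.5 to 58.3%) of shared gene-end peaks and 28.5% (27.8 to 29.3%) of WT-only distal peaks. Mutant H3K27ac lay within 1 kb of 274 (18.1%, 16.2 to 20.1%). Of the 502, 141 also had mutant H3K27ac within 1 kb (28.1%, 24.2 to 32.2%), close to the 27.6% (26.2 to 29.0%) at WT-only distal peaks and below the 47.7% (38.1 to 57.5%) at shared gene-end peaks. The mutant H3K27ac list was the shorter, with 18751 peaks beside 26415. WT H3K27ac was more frequent near WT-only gene-end peaks across an H3K4me3 edge (49.8%, 42.8 to 56.8%) than near those without H3K4me3 (26.8%, 23.7 to 30.0%). It stood at 35.8% (30.1 to 41.8%) for those inside H3K4me3 and 36.6% (29.8 to 43.9%) for those beside it. Shared gene-end peaks did not show this contrast, at 50.3% (42.0 to 58.6%) with WT H3K4me3 within 1 kb and 54.0% (40.9 to 66.6%) without. H3K27me3 was rare: 8 of the 1513 had WT H3K27me3 within 1 kb (0.529%, 0.229 to 1.04%), beside none of 212 shared peaks, which allows up to 1.72%, and 5.29% (3.30 to 7.97%) of mutant-only gene-end peaks. None lay within 1 kb of a region of the list whose name gives mutant over WT H3K27me3, which allows up to 0.244%.

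By gene, 1443 of 34614 genes had a WT-only gene-end peak, a background of 4.17%, with 819 protein-coding genes (3.74%) and 624 lncRNA genes (4.9%). Most genes had 1 such peak, 200 had 2, 19 had 3 and 2 had 4, and 113 had peaks at both ends. The share was higher among genes with WT H3K4me3 at an end (6.38%) than among those without (2.47%). Within both classes lncRNA genes stood above protein-coding genes, at 10.2% beside 5.54% with H3K4me3 and at 3.47% beside 1.42% without. Of 605 genes with a peak at the start, 350 had WT H3K4me3 at that start (57.9%) and 281 had mutant H3K4me3 (46.4%), beside 42.5% and 42.4% of all starts. WT H3K4me3 without mutant H3K4me3 within 1 kb was found at 11.9% (9.43 to 14.8%) of these starts, beside 1.43% of all starts. For lncRNA genes alone the shares were 16.6% and 1.99%, and for protein-coding genes 7.42% and 1.12%.

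Gene lists were set beside the 4.17% of all genes, and, since most genes of some lists carry H3K4me3, also beside the 6.38% of genes with WT H3K4me3 at an end. The lists are short, and no test was made of them. Of 20 housekeeping genes 4 had a WT-only gene-end peak, and those of B2m, the cyclophilin gene Ppia and the ribosomal gene Rpl13a lay inside H3K4me3 peaks of 4980 to 8697 bp that overlapped mutant H3K4me3. Among the 19 housekeeping genes with WT H3K4me3 at an end the share was 21.1%. Of 30 actin and focal adhesion genes 5 had such a peak, among them the integrin gene Itga5, the GTPase genes Rhoa and Rhoc, and Zyx, which encodes the adhesion protein zyxin. WT H3K4me3 lay at an end of 29 of the 30, and among these the share was 17.2%. At Itga5 the peak was 980 bp wide and met a WT H3K4me3 peak of 511 bp (score 63.13) and a mutant H3K4me3 peak of 4196 bp (score 3100). A single H3K4me3 peak per line was taken for each H3K4me1 peak. Any further WT H3K4me3 at Itga5 is therefore not shown, and these values do not compare the lines there. In the cell cycle list 3 of 30 genes had a peak (Ccnd3, Cdk4 and E2f4). The peak of Ccnd3, the cyclin D3 gene, was 736 bp wide at its stop end and 2614 bp from H3K4me3, whereas that of Cdk4 met the edge of H3K4me3 of 2734 bp in the WT and lay 416 bp from H3K4me3 of 2714 bp in the mutant line.

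In the list of undifferentiated or neural crest genes 3 of 29 had a WT-only gene-end peak. Nes, which encodes the intermediate filament nestin, had a peak of 1498 bp over its stop end, 753 bp from a WT H3K4me3 peak of 1203 bp with no mutant H3K4me3 within 5268 bp. Snai1, the gene of the transcription factor Snail, had 2 peaks of 1180 bp and 430 bp at its stop end, the second inside a WT H3K4me3 peak of 2221 bp. The peak at Ccn2, which encodes a matricellular growth factor, was 254 bp wide and lay inside WT H3K4me3 of 2681 bp and over mutant H3K4me3 of 1575 bp. That peak was 964 bp from an end of Ccn2 and closer, at 603 bp, to the start of the lncRNA Gm15270. Of 28 melanocyte genes Mc1r and Hps5 had a peak. Mc1r, the melanocortin receptor gene, had one of 393 bp at its start, 3708 bp from H3K4me3, and one of 1062 bp at its stop end. The latter lay 512 bp from a WT H3K4me3 peak of 4453 bp (score 3186.98), and the nearest mutant H3K4me3 was 1650 bp wide (score 608.59). Both H3K4me3 peaks extended past the stop end, away from the start of Mc1r. They ran on chromosome 8 from 123410483 to 123414935 in the WT and from 123410718 to 123412367 in the mutant line. They are thus not H3K4me3 of the Mc1r start, and they were not assigned to a gene.

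In the list of insulin-like growth factor and insulin signalling genes, the peak at Igfbp6 was 1454 bp wide (chromosome 15, 102144025 to 102145478, −log10 p of 9.13), covered the start and overlapped WT H3K27ac, with the nearest mutant H3K27ac 9339 bp away and H3K4me3 5513 bp away in the WT and 6587 bp away in the mutant line. None was found among 43 Hox genes, 34 developmental regulators, 28 receptor tyrosine kinase and Eph genes and 30 genes of oxidative phosphorylation and the TCA cycle. In that order these counts allow up to 8.22%, 10.3%, 12.3% and 11.6%. All of these limits lie above the background of all genes, so the lists are not set apart from it. Large families lay near or below the background: 10 of 242 Tmem genes (4.13%), 13 of 377 Slc genes (3.45%), 8 of 403 zinc finger genes with Zfp symbols (1.99%) and 1 of 1110 olfactory receptor genes (0.0901%). Among the genes with WT H3K4me3 at an end, the shares were 4.88% for Tmem, 4.63% for Slc and 2.48% for Zfp, beside 6.38%. Only 2 of the olfactory receptor genes had WT H3K4me3 at an end, so the 2.47% of genes without it is their closer background. The remaining lists each had 1 to 5 such genes or none, apart from the uncharacterised Gm and Rik symbols (518 of 11454 and 89 of 2209) and 10 of 327 ubiquitin and F-box genes.

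**Figure D5:**
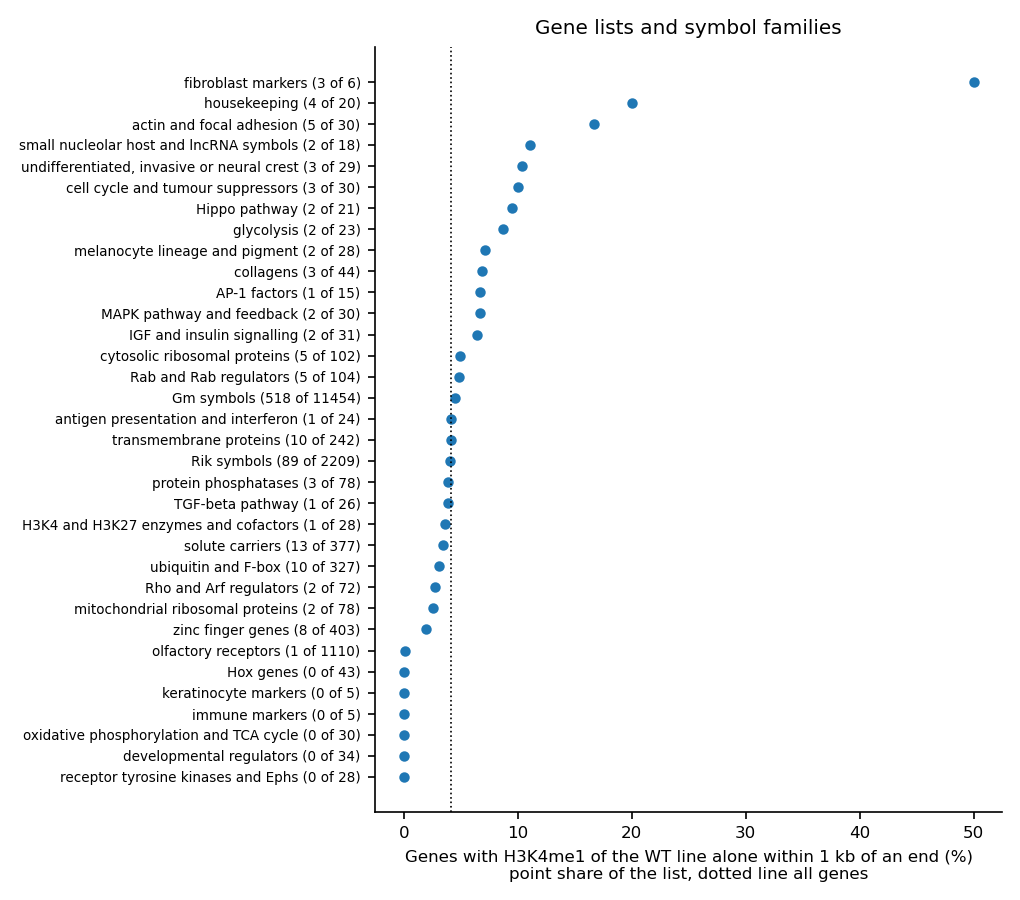
Percentage of genes in each list or symbol family of at least 5 genes with a WT-only gene-end H3K4me1 peak; points are shares, labels give counts, and the dotted line marks the 4.17% of all genes. Fibroblast markers (3 of 6), housekeeping genes (4 of 20) and actin and focal adhesion genes (5 of 30) lie highest, and 6 lists, Hox genes (0 of 43) among them, lie at 0.

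Markers of other cell types were examined in the same way, and 3 of 6 fibroblast markers had a WT-only gene-end peak. Col1a1 and Col1a2, the type I collagen genes, had peaks of 319 bp and 270 bp, and Thy1, a surface glycoprotein gene, one of 503 bp. H3K4me3 at a gene end was listed for Col1a1, Pdgfra and Thy1 in the WT line and for Col1a1 and Pdgfra in the mutant line, and no fibroblast marker had mutant H3K4me1 at an end. No endothelial, immune or keratinocyte marker (4, 5 and 5 genes) had H3K4me1 at an end in either line, while H3K4me3 was listed in both lines at the endothelial gene Kdr and the keratinocyte genes Krt1 and Krt10. Of 12 melanocyte markers, H3K4me3 at a gene end was listed for 3 (Mitf, Pax3 and Pmel) in the WT line. It was listed for 6 in the mutant line, which added Mlana, Slc45a2 and Sox10. The labelled cell type was thus only partly borne out by H3K4me3 at gene ends in the WT line. Either end of a gene was counted, so this is not a reading of promoters alone. With a single library per line it does not settle the cell type of either line. No melanocyte marker of the 12 had H3K4me1 at an end in either line. The part of these marker differences between the lines in the results above was not tested.

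Some genes carried several WT-only gene-end peaks. H6pd, the gene of the endoplasmic reticulum glucose-6-phosphate dehydrogenase, had 3 at its stop end (385, 641 and 741 bp, the strongest with a −log10 p of 9.59), all at least 7440 bp from H3K4me3 of either line. Pola2, which encodes a subunit of DNA polymerase alpha-primase, had 3 at its stop end (218, 531 and 391 bp). Ecm1, the gene of a secreted matrix protein, had 2 at its stop end, of 744 bp beside and of 703 bp inside a WT H3K4me3 peak of 1589 bp, with the nearest mutant H3K4me3 2456 bp or more away, and another of 200 bp that lay closer to the stop end of Tars2. Slc29a1, which encodes a nucleoside transporter, had 2 at its stop end and 1 at its start. Hrct1, shown above, had peaks of 513 bp over its start and 809 bp over its stop end and another of 313 bp that lay closer to the start of Spaar, and the nearest mutant H3K4me3 was 56243 bp or more away from each. The lncRNA 4931406H21Rik had 4, from 276 to 1626 bp wide, with no mutant H3K4me3 within 15323 bp of any of them.

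Peaks just inside and just outside the limits of the rule were also described. The 130 WT-only gene-end peaks in the last 100 bp inside the 1 kb limit to a gene end had a median width of 393 bp and H3K4me3 within 1 kb in 55.4% of cases, and the 142 WT-only peaks in the first 100 bp beyond it had 417.5 bp and 53.5%. The 43 WT-only gene-end peaks with a mutant H3K4me1 peak 1 to 2 kb away had a median width of 390 bp and H3K4me3 in 69.8% of cases, and the 85 gene-end peaks with a mutant peak at 1 to 1000 bp had 500 bp and 64.7%. The median distance to the nearest mutant H3K4me1 peak was 77.7 kb, and 156 of the 1513 had a mutant peak within 5 kb.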

How the data were processed

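Peak lists of ChIP-seq for 4 histone marks in 2 mouse melanoma lines were used as deposited, 1 library per line and mark, with no pooling. The build was mm10 and the tools FastQC, MultiQC and MACS2, per the submitters' processing notes; the aligner is not given in the sources used here, nor are versions or depth. The authors deposited, in the H3K4me1, H3K27ac and H3K27me3 lists, a fold enrichment (a ratio to control), a −log10 p value and a −log10 q value per peak. The H3K4me3 lists hold a score deposited by the authors, of at least 50, and 3100 recurs among the strongest peaks. All of these only rank or describe peaks of the same list. By its name, the mutant H3K27me3 list was called against WT H3K27me3, so it holds no plain mutant H3K27me3 peaks.

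Peaks on the autosomes, X and Y were kept. Gene ends came from RefSeq (GRCm38.p6), strand from its promoter table, which has 32851 windows of 27025 genes. Gaps were measured between nearest edges, with 0 for overlap. Shares have exact 95% intervals (Python 3.11.15, pandas 2.3.3, numpy 2.4.6, scipy 1.17.1, matplotlib 3.10.9). The interval functions were tested on simulated data. The members and gene lists were chosen with earlier results of these data known. Named genes were the 10 most significant and 10 widest peaks, the 3 most significant of each position, up to 4 per list, up to 5 H3K4me3 peaks with both flanks marked, up to 8 without mutant H3K4me3, and genes with 3 or more peaks. Not all of these are named in the text, and some results are not reported here. No promoter window met the planned rule for sequences, so those shown were chosen after their values were seen.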

Additional observations from a re-analysis of the deposited data

How the results depend on the processing

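Distances, thresholds, list lengths and gene models were varied singly, apart from 1 alternative on the side of H3K4me3 that changed 2 choices together. Of 84 values for the main measures, 50 moved by less than the counting interval (for counts of peaks, by less than 1.5 times) and 34 moved by more. The count of WT-only gene-end peaks was 897 with gene ends within 500 bp, 3082 within 2.5 kb, 809 in the more significant 50% of each H3K4me1 list, 309 with H3K4me1 lists of equal length and 814 with protein-coding genes only. The median width was 456 bp with gene ends within 500 bp, 506 bp in the more significant 50%, 545 bp with lists of equal length and 412.5 bp with protein-coding genes.

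The share with WT H3K4me3 was 56.9% with protein-coding genes, 40.3% with H3K4me3 scores of at least 100, 34.0% by overlap and 54.6% within 2.5 kb. Flanking positions made up 73.7% with lists of equal length, 57.2% with protein-coding genes and 56.8% with scores of at least 100. The share with mutant H3K4me3 was 28.0% with gene ends within 500 bp, 29.0% in the more significant 50%, 23.3% with lists of equal length, 44.0% with protein-coding genes, 20.3% by overlap and 39.0% within 2.5 kb. WT H3K27ac stood at 37.2% with lists of equal length, 12.8% by overlap and 47.6% within 2.5 kb. Mutant H3K27ac stood at 20.4% in the more significant 50%, 21.04% with lists of equal length, 6.01% by overlap and 28.7% within 2.5 kb. Overlap with WT H3K27me3 was 0 in the more significant 50%, which allows up to 0.455%, and 0 with lists of equal length, which allows up to 1.19%. The share at starts was 60.8% with gene ends within 2.5 kb, 49.1% with protein-coding genes and, of all members, 39.1% within 1 kb of any RefSeq start. Except where a setting leaves fewer peaks or widens a distance by its construction, the cause was not tested.

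The following alternatives, and that of any RefSeq start, were chosen after seeing the data. The share of H3K4me1 on the side of H3K4me3 away from the gene was 83.4% as reported, 86.4% at starts with no other gene end within 5 kb, and 39.5% at those starts without the limit on distance to the gene end. WT-only minus shared gene-end peaks gave -28.0 to -14.0 percentage points for WT H3K4me3 under 11 alternatives and -23.0 to -8.67 for WT H3K27ac under 10. The share of gene-end H3K4me3 without mutant H3K4me3 was 17.7 to 45.1% next to WT-only gene-end H3K4me1 and was higher there than over all gene ends by 14.6 to 39.9 percentage points under 11.

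No paired analysis was possible because each line and mark has 1 library. Depth is not known, and the shorter mutant H3K4me1 list limits every statement that a mutant peak is missing.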

Other observations

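Of 1005 annotated miRNA hairpins, 7 lay within 1 kb of a WT-only gene-end H3K4me1 peak. The let-7c-2 and let-7b hairpins on chromosome 15, in the lncRNA Lncppara, were near 2 of them: a peak of 2355 bp (85703348 to 85705702), between H3K4me3 peaks and 901 bp from the let-7c-2 hairpin, and a peak of 255 bp, 300 bp from the let-7b hairpin. Both belong to the let-7 family, which represses growth-promoting transcripts, and share a seed (bases 2 to 8, in capitals), as RefSeq gives them.
mmu-let-7b-5p: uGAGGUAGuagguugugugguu
mmu-let-7c-5p: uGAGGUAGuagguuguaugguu

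The share of WT gene-end H3K4me1 peaks with no mutant peak within 1 kb was 65.9% (54.6 to 76.0%) on chromosome 19 and 51 of 68 (63.0 to 84.7%) on chromosome 10, and between 85.3% and 97.7% on the other autosomes. Chromosomes 19 and 10 held 271 and 305 mutant H3K4me1 peaks. Chromosome X held 19 of the WT and 8 of the mutant H3K4me1 peaks, none of the WT ones at a gene end. Of the 53 promoter windows under WT H3K4me3 that a WT-only gene-end peak overlapped, 26 lay under mutant H3K4me3 (49.1%, 35.1 to 63.2%), beside 88.3% (84.3 to 91.6%) of the 317 windows under WT H3K4me3 at 1 to 1000 bp from such a peak. The share was 96.5% of the 13581 windows under WT H3K4me3 overlapped by neither WT-only nor shared gene-end peaks. Shared gene-end peaks overlapped 23 windows, of which 13 had no WT H3K4me3. None of these 13 lay under mutant H3K4me3, and 4 of the others did. These few windows do not set WT-only gene-end peaks apart from shared ones.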
